A study of Canis lupus familiaris with 2 samples.

Results

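The windows described here are 360 stretches of 1000 bp, dense in CpG dinucleotides, in which DNA methylation was higher in MDCK cells given TGF-beta than in untreated MDCK cells. They come from 80682 CpG-dense windows on dog chromosomes 1 to 38, out of 2164663 autosomal windows with any measured CpG. A window was CpG-dense if it held 40 or more listed CpG sites, 10 or more of them with at least 5 calls in both libraries (kept sites). It was a gaining window if the mean of its site levels was higher by 15 percentage points or more in the TGF-beta library and its summed calls were higher by 10 points or more on each strand. The windows were thus chosen on the difference between the cultures. That difference is described below and is not evidence for itself.

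The treated culture was MDCK, an established epithelial line from dog kidney, given TGF-beta at 5 ng/ml for 30 days, and the labels call its phenotype mesenchymal. The other culture was untreated MDCK, kept for the same 30 days in parallel and labelled epithelial. Each group has 1 whole-genome bisulfite library, so no difference has a replicate check and no test across samples exists. Bisulfite converts unmethylated cytosine and leaves methylated cytosine, so each read over a CpG gives a methylated or an unmethylated call. RNA was not measured, so the labelled phenotypes could not be checked against marker genes.

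CpG islands are short CpG-rich stretches that often hold gene promoters, and in most mammalian tissues many of them are free of methylation while the CpG-poor genome around them is methylated. DNA methyltransferases add methylation and copy it when the DNA replicates. Dense methylation of an island promoter is generally associated with stable silencing of its gene. TGF-beta is a secreted growth factor that can bring on epithelial-mesenchymal transition, and the series compares DNA methylation with and without it. Gene annotation and sequence of canFam3, the build of all positions here, were not used, so no window is assigned to a gene or to an annotated island.

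The TGF-beta library held 1019766599 CpG calls and the control library 656122583. Within gaining windows the median depth was 33.5 calls per kept site in the TGF-beta library and 15.3 in the control. Mitochondrial DNA, whose level is taken as an upper limit on its own failed conversion, was at 0.329% in the TGF-beta library and 0.211% in the control. Failed conversion in nuclear windows was not measured. Window levels are means of site levels unless summed calls are named. Intervals of levels are exact 95% binomial intervals on summed calls, and the interval of a difference combines those of both levels. They cover counting error only, since amplified reads are not independent molecules.

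Gains outnumbered falls among CpG-dense windows. The 360 gaining windows were 0.446% of the 80682 CpG-dense windows, and 36 windows, 0.0446%, were lower by the same limits. By the same size limits, 1.74% of the 1374041 autosomal windows of any density with 5 or more kept sites were higher and 1.11% were lower. Each of the 38 autosomes held gaining windows and each held more of them than of falling windows, which lay on 20 autosomes. Chromosome X was outside the rule; by the same limits 49 of its 3071 CpG-dense windows (1.6%) were higher and 4 (0.13%) lower. The ratio of gains to falls depended on how sites were weighted: with 15 points in summed calls in place of the mean of site levels, 648 windows were higher and 200 lower.

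The strand condition removed part of the windows past the size limit. Before it, 532 windows passed the size limit upwards and 65 passed it downwards. Over all CpG-dense windows, 1598 had strands that both differed by at least 10 points with the same sign, and 398 had strands that did so with opposite signs. Averaged over the strands, the difference was at least 15 points up or down in 1281 windows. The strands departed from that average by at least 15 points in 460. Each strand weights its sites by its own depth, so unequal depth over sites of unlike level can also part the strands. At the limit itself, the windows just inside were on chromosome 30 at 25414001, with 37.7% in the TGF-beta library against 22.7% in the control, and on chromosome 4 at 39153001, with 30.4% against 15.4%. The windows just outside were on chromosome 5 at 54361001, with 20.2% in the TGF-beta library against 5.21% in the control, a difference of 14.97 points, and on chromosome 35 at 25507001, with 58.8% against 43.8%.

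**Figure D1:**
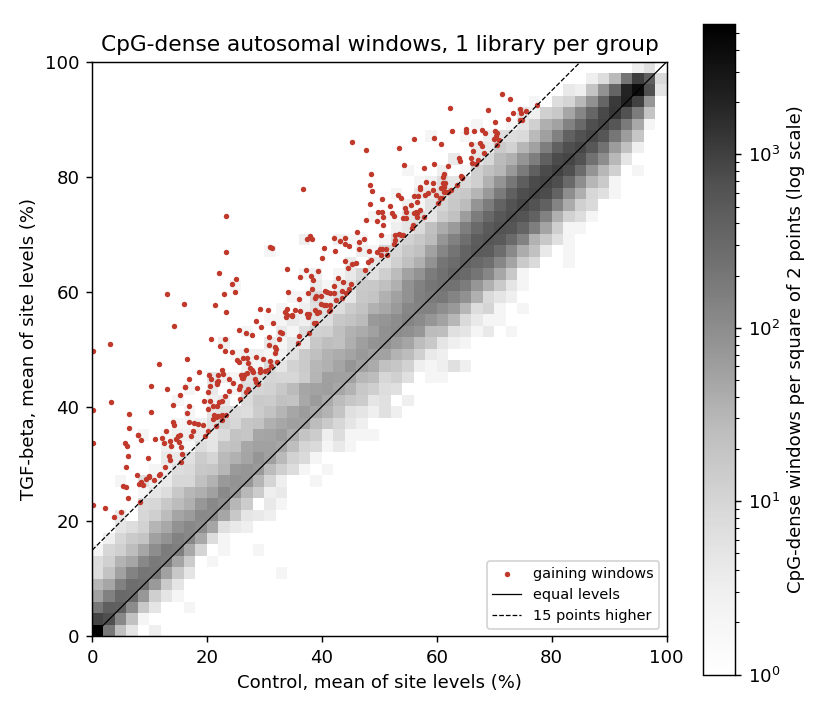
Mean of site levels in the TGF-beta library (vertical axis, %) against the control library (horizontal axis, %) for the 80682 CpG-dense autosomal windows, with grey squares of 2 points shaded by their number of windows on a log scale and the 360 gaining windows as red points. Most windows lie along the line of equal levels, and the gaining windows spread over control levels of 0.109% to 77.4%.

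Most gaining windows were neither unmethylated nor fully methylated in the control. Their median level was 57.6% in the TGF-beta library (quartiles 43.6% and 73.7%) and 36.01% in the control (quartiles 21.7% and 52.8%), with a median difference of 19.6 points. Other CpG-dense windows had medians of 75.7% and 75.4%. A window above 85% cannot pass the limit, which bounds this contrast. By control level, 30 gaining windows started under 10%, 46 at 10% to 20%, 131 at 20% to 40%, 98 at 40% to 60% and 55 at 60% or more.

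The share of CpG-dense windows that gained was highest where the control level was intermediate. It was 3.68% of the 3556 windows that started at 20% to 40%, 1.68% at 10% to 20% and 1.79% at 40% to 60%. It was 0.269% of the 11132 windows that started under 10%. At 60% or more, where part of the windows had no room to gain 15 points, it was 0.0952% of 57776. Of the 36 falling windows, 20 ended at 40% to 60% and 0 under 10% in the TGF-beta library, while in the control 24 started at 60% or more, 9 at 40% to 60% and 3 at 20% to 40%.

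The lowest band of single CpG sites held a smaller share in the TGF-beta library. To set sites of unequal depth side by side, the calls of each site were drawn to the smaller of its 2 totals. Of the 18875 kept sites in gaining windows, 16.4% were then under 20% in the TGF-beta library, against 39.9% in the control. Sites at 80% or more made up 33.98% in the TGF-beta library and 14.9% in the control, and sites between made up 49.6% and 45.1%. In windows that started under 10%, the band from 20% to 80% held 52.8% of sites in the TGF-beta library against 10.1% in the control, while 5.62% against 0.183% were at 80% or more. In windows that started at 60% or more, 75.4% of sites were at 80% or more in the TGF-beta library, against 41.7% in the control.

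**Figure D2:**
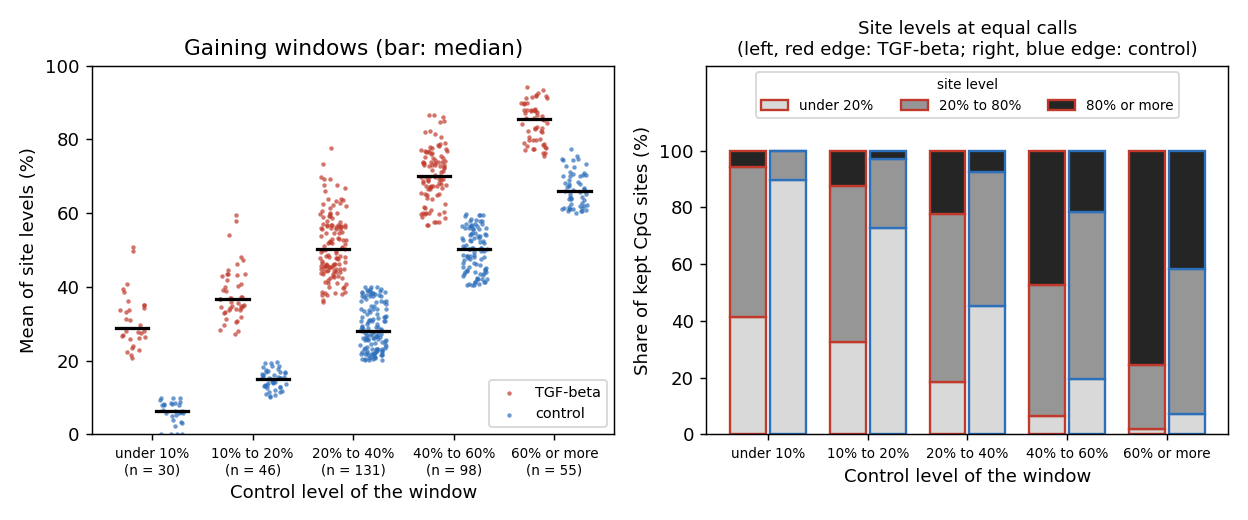
Left, the mean of site levels (%) of each gaining window in the TGF-beta library (red) and the control library (blue), in 5 classes of control level with 30, 46, 131, 98 and 55 windows, with a bar at the median. Right, the share of kept CpG sites (%) under 20%, from 20% to 80% and at 80% or more at equal calls per site, with the TGF-beta bar left of the control bar; in the lowest class the middle band holds 52.8% against 10.1% of sites.

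The 30 windows that started under 10% were the closest to an unmethylated CpG island in the control. Their levels in the TGF-beta library ranged from 20.8% to 50.8%, with a median of 28.8%, against a control median of 6.22%. The control median of other CpG-dense windows under 10% was 1.05%, so contrasts within this class are not between equal levels. In the TGF-beta library 3 of them reached 40% and 16 were under 30%, so levels there were partial. They lay on 18 chromosomes and rested on 136 to 4610 calls in the TGF-beta library, with a median of 1783, and on 140 to 1943 in the control, with a median of 843. Among all 5457 CpG-dense windows under 1% in the control, 4 gained, and 8 of the 30 windows started under 5%.

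The gaining windows with the lowest control levels had almost no methylated call in the control. On chromosome 27 from 38082001 to 38083000, 504 of 1332 calls were methylated in the TGF-beta library, 37.8% (35.2 to 40.5), against 2 of 818 in the control, 0.244% (0.0296 to 0.880). On chromosome 5 from 56364001 to 56365000 there were 1296 of 2598, 49.9% (47.9 to 51.8), against 2 of 993, 0.201% (0.0244 to 0.726). The next window, from 56365001 to 56366000, had 1210 of 3416, 35.4% (33.8 to 37.1), against 3 of 1622, 0.185% (0.0382 to 0.540). Control values in these 3 windows are close to the 0.211% of mitochondrial DNA.

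The window at 56364001 had the second largest gain of all, 49.5 points in mean site level, and its sites did not gain evenly. All of its 55 kept sites were higher in the TGF-beta library and 49 of them by 15 points or more. In parts of 100 bp the TGF-beta level alternated between high and low: it was 56.3% over the first 12 sites, 18.6% over the next 6, 64.6%, 25.1% and 65.3% in the 3 parts after these, and 20.4%, 65.3%, 54.9%, 50.5% and 43.2% in the rest. No part exceeded 1.75% in the control. Together with the 2 windows after it, it formed the longest stretch of adjacent gaining windows, from 56364001 to 56367000, at 46.2% in the TGF-beta library against 6.11% in the control over 154 sites.

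The largest gain, on chromosome 31 from 33855001 to 33856000, lay where methylated sequence met unmethylated sequence in the control. The window was at 73.2% in the TGF-beta library and 23.3% in the control by the mean of site levels, and at 72.6% (71.2 to 74.1) against 13.96% (12.2 to 15.9) by summed calls, with 3749 and 1397 calls. Its first 200 bp were highly methylated in both libraries, at 97.1% and then 95.05% in the TGF-beta library against 89.0% and 90.8% in the control. Over the next 4 parts of 100 bp the TGF-beta library had 91.4%, 83.0%, 64.5% and 61.0%, a shallow slope, against a steep one of 31.2%, 5.22%, 1.33% and 0.431% in the control. Single sites did not follow that slope evenly: those at 501 to 600 bp ranged from 11.4% to 98.7% in the TGF-beta library. The TGF-beta library then had 47.4% and 41.1%, and 32% at the 1 kept site of the part from 801 to 900 bp, where the control was at 0%. The slope did not run to the end of the window: the last 100 bp, with 2 kept sites, were at 71.3% in the TGF-beta library against 1.48% in the control. The window before it was at 96.1% in the TGF-beta library against 95.7% in the control, and the window after it at 94.0% against 80.7%.

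In the control, the window with the third largest gain was low throughout, while that with the fourth ran from methylated to unmethylated sequence. On chromosome 24 from 25981001 to 25982000 the level was 50.8% in the TGF-beta library and 3.05% in the control, with 38 of 40 kept sites higher by 15 points or more, and parts of 100 bp with 4 or more sites ranged from 22.9% to 62.9% in the TGF-beta library, against 8.75% at most in the control. On chromosome 30 from 37799001 to 37800000 the level was 59.5% against 13.1%. There the TGF-beta library had 93.1% at 201 to 300 bp and 54.7% at 501 to 600 bp, against 27.6% and 4.72% in the control. Its last 100 bp were at 10.4% in the TGF-beta library. The window after it, with 127 listed sites, was at 6.38% in the TGF-beta library against 0.680% in the control.

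**Figure D3:**
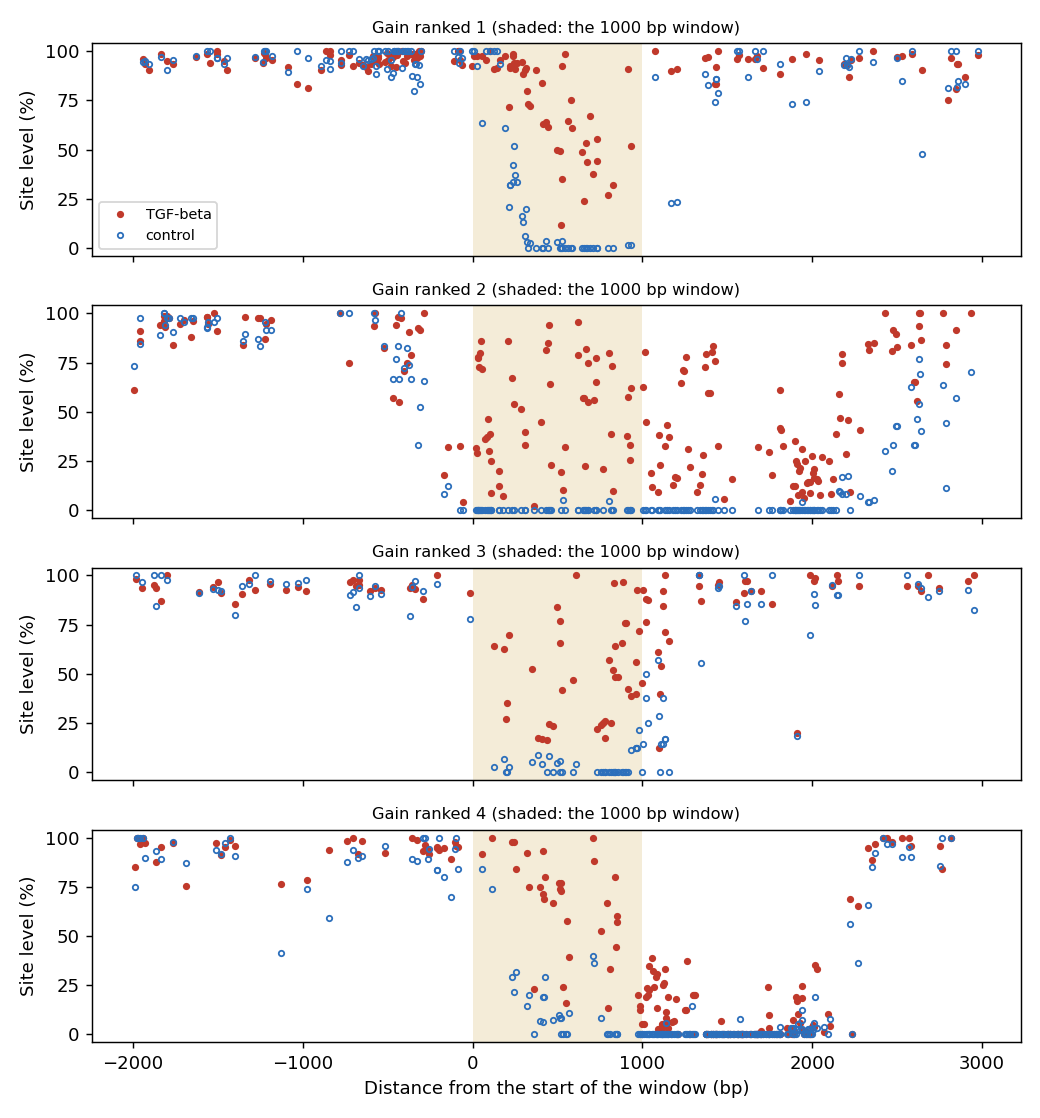
Level (%) of each kept CpG site in the TGF-beta library (filled red) and the control library (open blue) along the 4 windows with the largest gains, ranked 1 to 4 from the top, against distance (bp) from the start of the shaded window of 1000 bp. In rank 1 the TGF-beta library is at 83.0% at 301 to 400 bp, where the control is at 5.22%. In ranks 2 and 3 the control stays low across the shaded part. TGF-beta sites scatter between low and high levels in ranks 2 and 3 and in part of rank 1.

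The other 6 of the 10 largest gains with at least 200 calls in each library started at 14.3% to 45.3%. They were on chromosome 18 at 46180001, with 66.9% in the TGF-beta library against 23.3% in the control, on chromosome 26 at 196001, with 57.8% against 15.96%, and on chromosome 21 at 47824001, with 63.3% against 22.1%. Those on chromosome 32 at 29906001 and chromosome 6 at 12469001 ended highest, at 77.8% in the TGF-beta library against 36.7% in the control and at 86.1% against 45.3%. The sixth, on chromosome 27 at 2206001, was at 54.0% against 14.3%. By summed calls the differences of the 10 windows ranged from 30.8 points, on chromosome 32, to 58.7 points, on chromosome 31.

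At the other end, the gaining windows with the highest control levels ended near full methylation. On chromosome 34 from 35509001 to 35510000 the level was 92.5% in the TGF-beta library against 77.4% in the control. It was 91.5% against 75.5% on chromosome 6 from 77351001 to 77352000, and 89.9% against 74.8% on chromosome 7 from 1265001 to 1266000. In these windows 16 of 41, 11 of 30 and 23 of 50 kept sites were higher by 15 points or more. The range of site levels on chromosome 34 was 61.2% to 100% in the TGF-beta library and 15.7% to 100% in the control, so the sites of that window were more alike in the TGF-beta library.

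Across gaining windows, a median of 55.1% of kept sites was higher by 15 points or more, with a range of 33.3% to 95%, and a median of 2.14% was lower by as much. In other CpG-dense windows these medians were 9.26% and 7.14%. All kept sites were higher in 8 gaining windows, and 137 had no site lower by 15 points. These 2 counts were not made in other CpG-dense windows. The lower quartile of the share of sites lower by 15 points was 0% in gaining windows and 2% in others. The spread of site levels within a window was similar in the 2 libraries, with a median SD of 25.2 points in the TGF-beta library and 25.4 in the control. Since the windows were chosen on the mean of these sites, the shares describe how the gain was spread and do not add to it.

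Sites left out of the rule for lack of calls were also higher in the TGF-beta library. These 4846 sites lay in gaining windows and had fewer than 5 calls in at least 1 library. Their summed calls were at 47.9% (47.4 to 48.5, 32086 calls) in the TGF-beta library and 28.0% (27.2 to 28.8, 11800 calls) in the control, a difference of 19.9 points (18.9 to 20.9). At left-out sites of other CpG-dense windows it was 5.16 points (49.9% against 44.7%). By the mean of site levels over left-out sites with a call in both libraries the difference was 14.98 points over 3850 sites, against 1.24 points in other windows. Of 192 gaining windows with 5 or more such sites, 168 were higher there. The same was not counted in other CpG-dense windows, so this count has no background beside it. Left-out sites share reads with the kept sites beside them, so they are separate measurements only in part.

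Pooled over all control levels, the difference dropped off within 2 kb, but this pooled profile joins classes that differed. Windows immediately before and after gaining windows had median differences of 3.40 and 2.44 points, against 0.475 and 0.462 points beside other CpG-dense windows, and at 2 kb the medians were 0.740 and 0.994 points. From 3 kb to 10 kb on either side they lay between 0.0447 and 1.06 points. Around the gaining windows that started at 60% or more, the medians from 3 kb to 10 kb were 1.55 to 7.68 points, above 0 at 16 of 16 distances. They were 0.171 to 0.241 points around other windows of that class, whose control median was 81.7% against 66.1%. Around gaining windows that started under 10%, measured in 22 to 28 windows, the medians were -4.31 to 1.92 points and above 0 at 4 of 16 distances. They were 0.530 to 0.871 points around other windows of that class. In the 3 classes between, medians around gaining windows were within -2.22 and 2.11 points. Beside gaining windows the median level was 77.2% in the TGF-beta library against 69.8% in the control on the lower side, and 73.7% against 69.6% on the upper side. A CpG-dense neighbour past the limits is itself a gaining window and is left out of the counts of neighbours, so these were made among neighbours with under 40 listed sites: 50 of 426 beside gaining windows (11.7%) were higher by the same limits and 5 (1.17%) lower, against 749 of 73518 (1.02%) and 282 (0.384%) beside other CpG-dense windows. With CpG-dense neighbours that were not gaining windows added, which by construction can add almost nothing to the higher count, 50 of 664 (7.53%) were higher and 6 (0.904%) lower, against 752 of 128664 (0.584%) and 299 (0.232%). The median difference of neighbours was 3.43 points beside gaining windows that started under 10% and 3.65 points at 10% to 20%. It was 1.82 points at 20% to 40%, 1.91 points at 40% to 60% and 7.55 points at 60% or more. Beside other windows of those classes, in the same order, it was 1.12, 0.790, 0.771, 0.552 and 0.277 points. Reads can span the edge between windows, and how much of the 3.40 and 2.44 points comes from shared reads was not tested.

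**Figure D4:**
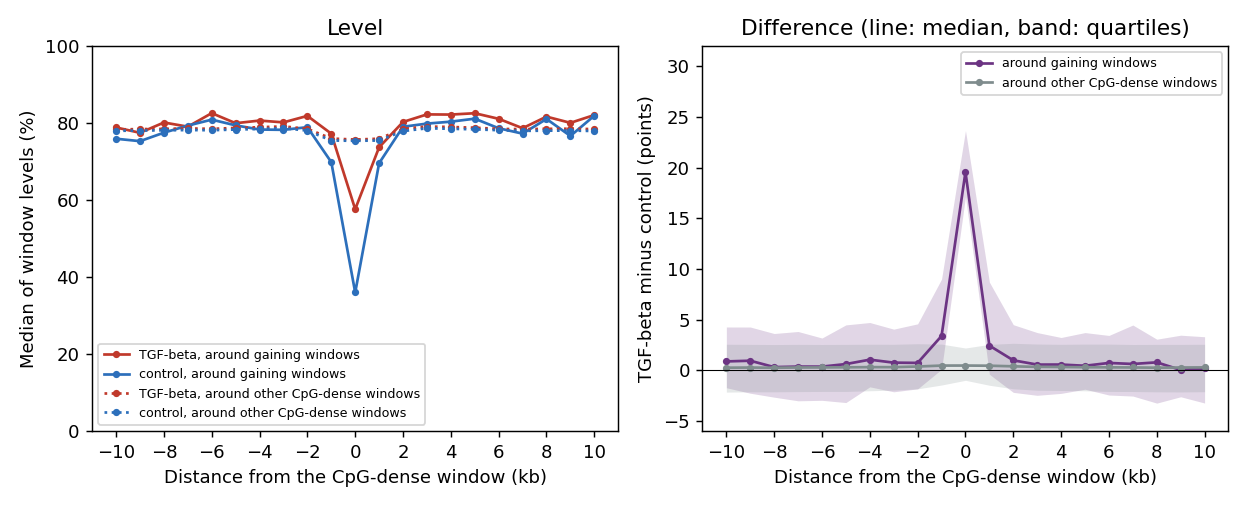
Left, the median level (%) of windows at distances of -10 to 10 kb around gaining windows (solid) and around other CpG-dense windows (dotted) in the TGF-beta library (red) and the control library (blue); right, the median difference in points with the quartiles as a band. Around gaining windows the difference is 19.6 points at the window, 3.40 and 2.44 points beside it, and 1.06 points or less from 3 kb on, all control levels pooled; the classes are not drawn apart, and from 3 kb on windows that started at 60% or more had medians of 1.55 to 7.68 points.

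Gaining windows lay in dips of methylation in the control, as did other CpG-dense windows that started under 60%. The dip of gaining windows was shallower after TGF-beta. The rule chose a rise inside the window and set no limit on its flanks, so a shallower dip follows from the choice. At 5 kb before and after, median levels were 79.9% and 82.5% in the TGF-beta library against 79.4% and 81.1% in the control, while those of the windows themselves were 57.6% against 36.01%. In the control, other CpG-dense windows that started at 20% to 40% were at 28.9%, with 82.96% and 83.03% at 5 kb. Gaining windows of that class were at 27.96%, with 80.3% and 78.8%. At 40% to 60% gaining windows lay in the deeper dip, at 50.2% with 74.9% and 79.7%, against 53.3% with 68.6% and 68.6%. At 60% or more other windows lay in no dip, at 81.7% with 76.3% and 76.4%, against 66.1% with 76.1% and 78.97%. An unmethylated neighbour, under 10% in the control, was present beside 13 of 30 gaining windows that started under 10% (43.3%), 11 of 46 at 10% to 20% (23.9%) and 15 of 129 at 20% to 40% (11.6%). Beside other CpG-dense windows of the same classes the shares were 56.5%, 45.6% and 33.7%. At 40% to 60% they were 12.2% beside both, and at 60% or more 9.09% beside gaining windows against 1.63%. The lowest and highest classes were not matched in level. Under 10% the control median was 6.22% in gaining windows and 1.05% in others, and at 60% or more 66.1% and 81.7%.

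Where the neighbours of a gaining window differed from each other by 10 points or more in the control, the parts of 500 bp on either side could be compared. Of 192 such windows with at least 5 kept sites in each part, the part next to the more methylated neighbour had a median of 68.6% in the TGF-beta library and 47.1% in the control. The other part had 49.7% and 23.8%. The median differences were 18.5 and 22.8 points, and the gain was larger in the near part in 82 windows and in the other part in 110. Both parts were higher by 10 points or more in 128 windows, so in most of them the gain was not limited to the methylated side. The rule used these same sites, so this describes the gain and does not add to it. The part next to the more methylated neighbour also started higher, with less room to gain.

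The wider surroundings of most gaining windows did not share the gain. The surroundings were taken as 100 kb around each window without the window and the 5 windows on each side. Their median was 70.9% in the TGF-beta library against 68.2% in the control, and the median of the differences was 0.648 points, against 0.504 points around other CpG-dense windows. They were higher by 5 points or more around 28 gaining windows (7.78%) and lower by as much around 19 (5.28%), against 1.64% and 0.961% of other CpG-dense windows, so the larger shares were in both directions. In 342 of the 360 windows the gain exceeded that of the surroundings by 10 points or more. The lower limit on the gain in the rule largely sets this count. Every window outside the 28 with surroundings higher by 5 points or more passes by construction. The count is thus not separate evidence about the surroundings.

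Gaining windows that lay in gaining blocks mostly started high. The surroundings of 12 gaining windows on 8 chromosomes were higher by 10 points or more (3.33%, against 0.268% of other CpG-dense windows), those of 4 were lower by as much (1.11%, against 0.146%), and 8 of the 12 started at 60% or more. On chromosome 34, 3 windows lay in a block that differed as a whole: at 35602001 the window was at 91.7% in the TGF-beta library against 74.4% in the control, while its surroundings were at 84.1% against 48.0%. The surroundings there differed by 36.1 points, more than the 17.3 points of the window. Of the gaining windows that started under 10%, 0 of 30 had surroundings higher by 5 points, against 93 of 11101 other windows of that class. That share is too small for the count of 0 to be a result about the gaining windows. The median of their surrounding differences was -0.936 points, against 0.838 points around other windows of that class. Those other windows started lower, at a control median of 1.05% against 6.22%.

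**Figure D5:**
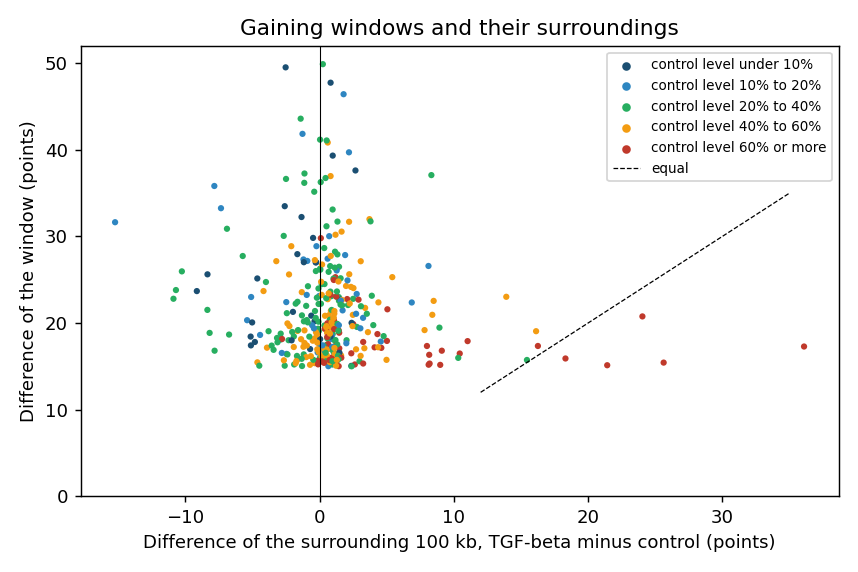
Difference of each gaining window (vertical axis, points) against the difference of its surrounding 100 kb (horizontal axis, points), TGF-beta minus control, coloured by the control level of the window. Most points lie near 0 on the horizontal axis, with a median of 0.648, and the points far to the right, up to 36.1, are mainly windows that started at 60% or more.

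Most gaining windows had no gaining window beside them, but adjacency was above the background. The 360 windows formed 352 stretches: 345 single windows, 6 pairs and the stretch of 3 windows on chromosome 5. The pairs differed by 15.8 to 29.6 points, the largest on chromosome 12 from 40167001 to 40169000, at 46.5% in the TGF-beta library against 16.9% in the control, where the surroundings were at 54.7% against 62.7%. Of the CpG-dense windows adjacent to gaining windows, counted once for each side, 16 of 254 (6.3%) were gaining windows, against 238 of 75386 (0.316%) of those adjacent to other CpG-dense windows. Another gaining window lay within 100 kb of 55 of the 360 gaining windows. The same was not counted around other CpG-dense windows, so this count has no background beside it. Of the gaining windows, 41.9% had no CpG-dense window next to them, against 31.2% of other CpG-dense windows. The number of listed CpG sites had the same median of 56 in both sets. Under 10%, gaining windows had a median of 56 and other windows 80, with control medians of 6.22% and 1.05%.

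By chromosome, gaining windows made up between 0.161% of CpG-dense windows, on chromosome 17, and 2.42%, on chromosome 32. Chromosome 1 had the most, 34 of 4958. On chromosome 32 there were 10 among 414, spread from 2558001 to 38408000, with 2 of them within 100 kb of each other, so that share did not come from a single block. Their levels ranged from 37.4% to 77.8% in the TGF-beta library and from 16.8% to 58.5% in the control.

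Depth was lower in gaining windows than in other CpG-dense windows, and its part in the gain was not tested. Gaining windows had medians of 33.5 calls per kept site in the TGF-beta library and 15.3 in the control, against 41.8 and 18.2 in other windows, and a median of 89.1% of listed sites kept against 98.2%. In 4 groups of CpG-dense windows of nearly equal size by control depth, from shallow to deep, 0.749%, 0.426%, 0.337% and 0.273% were gaining windows, with 151, 86, 68 and 55 windows. Falling windows numbered 17, 9, 2 and 8 in these groups, so gains outnumbered falls in each. The log2 ratio of calls, TGF-beta over control, had a median of 1.13 in gaining windows and 1.19 in others. At equal calls per site the rule chose 390 windows, of which 314 were among the 360.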

How the data were processed

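Whole-genome bisulfite libraries of MDCK cells, 1 with TGF-beta and 1 untreated, were compared, grouped by the labelled agent. The deposited values are counts: the authors list methylated and unmethylated calls at every CpG cytosine, without a header. The column of methylated calls was identified from mitochondrial DNA, which is nearly free of them. Bismark and Bowtie 0.12.8 with canFam3 are named in the submitters' processing notes, and SOAPaligner2 in the labels' extraction protocol. Whether duplicates were removed or mates trimmed where they overlap is not given in the sources used here; if not, some calls repeat the same molecule and intervals are too narrow.

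Adjacent cytosines were joined into 23477970 autosomal CpG sites, 91.1% with both positions listed; 21087931 had 5 or more calls in both libraries. Runs of an odd number of adjacent cytosines longer than 1 (0.00684% of calls) and 1 line per file without a chromosome were left out. A cytosine with no listed neighbour was kept as a site with 1 position. Strand sums used sites with both positions listed. The windows and lists were chosen with earlier results of these data known. The windows named are the 10 largest gains with 200 or more calls in each library, the 3 lowest and 3 highest control levels, the longest stretches and those nearest the limit; others were named after their values were seen. Gene context was planned and is not used here. No test was run, because each group has 1 library; the rule was tested on simulated data. Python 3.11.15, numpy 2.4.6, scipy 1.17.1, pandas 2.3.3, pyarrow 21.0.0 and matplotlib 3.10.9 were used.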

Additional observations from a re-analysis of the deposited data

Results flagged for a closer look

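The rule was limited to autosomes, and chromosome X, which it does not use, held windows of the same kind. On chromosome X, 49 of 3071 CpG-dense windows (1.6%) were higher in the TGF-beta library by the same limits and 4 (0.13%) were lower, against 0.446% and 0.0446% on autosomes; this difference was not tested. The 49 windows had a median of 41.6% in the TGF-beta library and 20.8% in the control, and 23 of them started under 20%. Over all CpG-dense windows the median difference was 0.485 points on chromosome X and 0.489 points on autosomes. Their median depth in the control was 16.2 calls per kept site on chromosome X and 18.2 on autosomes.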

How the results depend on the processing

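Of 76 recomputed values 54 stayed within 1.5 times the reported count or within the 95% interval of the reported value, and 22 moved further. Only the surrounding difference, the log2 call ratio and the gain at left-out sites could change sign, and none of them did. The number of gaining windows was 360 and became 167 and 728 with limits of 20 and 10 points, 159 and 639 with 60 and 30 listed sites, and 648 with summed calls. It was 393 with 10 calls per site, 319 with 1, 375 on a grid shifted by 500 bp, 346 with 20 kept sites and 532 without the strand condition. Falling windows, 36, became 12 and 93 with 60 and 30 listed sites, 18 and 95 with 20 and 10 points, 65 without the strand condition and 200 with summed calls. The median control level, 36.01%, moved to 29.1% and 39.3% with limits of 20 and 10 points and to 40.6% with 30 listed sites. The share that started under 20%, 21.1%, moved to 27.5% with 20 points. The share of neighbours, other than gaining windows, that were higher, 7.53%, moved to 3.68% with 60 listed sites and 9.90% with 20 points. The surrounding difference, 0.648 points, moved to 0.102 and 0.941 points with 60 and 30 listed sites, and the log2 call ratio to 1.19 on the shifted grid. The gain at left-out sites, 19.9 points, moved to 16.1 with 10 calls per site, 17.7 on the shifted grid, 21.4 with 60 listed sites, 26.4 and 16.6 with 20 and 10 points, 18.5 without the strand condition, 18.5 at equal calls and 17.0 with summed calls. With 1 call per site no left-out site has calls in both libraries, so that value was not run. The causes were not tested. With summed calls 323 of the 648 windows were among the 360, and with 10 calls per site 273 of 393. Counts of falling windows, left-out sites by mean site level and neighbours with under 40 listed sites were added after the data were examined. No paired analysis was possible because each group has 1 library. Low depth limits what can be said of single sites, where 5 calls give coarse levels.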
